A study of Mus musculus with 32 samples.

Results

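The comparison set mouse embryonic fibroblasts (MEFs), which are connective tissue cells cultured from embryos, that had been kept in thapsigargin for 16 h against control fibroblasts at 0 h of treatment, in cytosolic RNA and across all genes. Its members are the 4 libraries titled Tg16_In and the 4 titled Ctrl_In, 8 of the 32 libraries of the series, each found through the name that its sample description gives to a column of the count table. The rest of the series holds cytosolic RNA at 1 h of thapsigargin and at 16 h with a PERK inhibitor present for the last 4 h, and polysome RNA of all 4 conditions. All cells carried the same source label, with no genotype given, and were grown in high-glucose medium with fetal bovine serum. Neither the thapsigargin dose nor the solvent of the control cells nor the cells' passage is stated in the labels. The labels call the 4 samples of a group replicates without saying that they were separate cultures, so the p-values reflect variation among these samples that could be technical.

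Thapsigargin blocks SERCA, the pump that fills the endoplasmic reticulum (ER) with calcium, and ER chaperones that need calcium then fail to fold their clients. Unfolded protein is sensed by membrane proteins of the ER. The sensor IRE1 splices the mRNA of the transcription factor XBP1 and cleaves some mRNAs at the ER. ATF6 is cut in the Golgi and released as a transcription factor. PERK phosphorylates the initiation factor eIF2, which lowers general protein synthesis and raises translation of the transcription factor ATF4, which in turn induces the gene of CHOP. Together they raise genes for protein folding, degradation and amino acid supply. In fibroblasts, whose main secretory products are collagens and other matrix proteins, this response acts on cells that also depend on serum and adhesion signals.

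The 4 treated libraries held 29465980 to 34966246 counts each and the 4 control libraries 28280030 to 31979188. The 10 most abundant genes took 6.504 to 6.912% of the counts of a treated library and 4.518 to 4.634% of those of a control library. The first principal component of the 8 libraries held 90.1% of the variance and separated the groups. The second held 7.25% and set replicate 1 of both groups apart from the other libraries. In these 2 libraries the deviation of a gene from its group mean fell with the GC content of its transcripts, with Spearman coefficients across genes of -0.76 in treated replicate 1 and -0.79 in control replicate 1. The same coefficients were 0.52, 0.67 and 0.048 in treated replicates 2 to 4 and 0.75, 0.44 and 0.26 in control replicates 2 to 4. Where leaving out replicate 1 of both groups moved a count of list members by over 1.5 times, the count without them stands beside it. Of 17 fibroblast markers, 14 reached 1 CPM (counts-per-million of the library, with TMM scaling) in both groups, with summed levels of 4665 to 5504 CPM in treated and 10290 to 14430 CPM in control libraries. The fibroblast markers Dcn, Lum and Fap stayed under 1 CPM in both groups, with control means of 0.283, 0.00815 and 0.171 CPM. None of 8 epithelial and none of 7 endothelial markers reached 1 CPM in either group. Muscle markers summed to 1.942 to 2.634 CPM in treated and 6.779 to 7.69 CPM in control libraries. For germ and stem markers the sums were 1.631 to 2.109 and 2.216 to 3.499 CPM, and for adipocyte markers 0.1247 to 0.4294 and 0.8252 to 1.722 CPM. Macrophage and blood markers summed to 8.547 to 11.04 CPM in treated and 13.04 to 17.16 CPM in control libraries, and neural markers to 27.11 to 34.58 and 48.22 to 55.69 CPM. Among the neural markers Map2 averaged 14.67 CPM in treated and 48.75 CPM in control cells, while Tubb3 averaged 17.28 and 2.569 CPM. The part of these levels in the results was not tested. In such bulk RNA fewer cells of a type and less RNA per cell cannot be told apart, and every level is a share of its library.

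Most genes differed between the groups. Of 20234 genes in the deposited table, 12366 had enough counts to be tested, and 9559 of them (77.3%) were called by edgeR's quasi-likelihood test at a Benjamini-Hochberg adjusted p under 0.05, 4683 higher (37.9%) and 4876 lower (39.4%) after 16 h of thapsigargin. Without replicate 1 of both groups 4805 were higher and 5005 lower. The median log2 change of all tested genes was -0.01, with quartiles of -0.67 and 0.47; the scaling itself places this centre near 0. Changes of at least 2-fold were found in 1033 genes that rose (8.35%) and 2171 that fell (17.6%), changes of at least 4-fold in 285 and 891, and changes of at least 8-fold in 130 and 391. The 4 treated and 4 control values did not overlap in 8210 genes (66.4%), 8160 of them called. Of the 9559 called genes, 3794 moved by less than 1.5-fold.

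The genes that rose at least 2-fold took 14.4 to 14.7% of the counts of treated libraries and 4.18 to 4.27% of those of control libraries. Those that fell at least 2-fold took 5.35 to 5.65% of treated and 20 to 21.1% of control libraries. These genes were defined by this contrast, and the shares describe their weight in the libraries. The share of tested genes called grew with their mean level, with 66.2% under 1 CPM, 75.2% from 1 to 10, 77.8% from 10 to 100, 82.5% from 100 to 1000 and 87.2% of the 78 genes above 1000 CPM. Transcript GC content and the log2 change had a Spearman coefficient of -0.093 across 11944 genes, which are not independent replicates. In 51 lists of genes grouped by function, the members called in each direction ranged from none to all of those tested. Their counts below stand beside 37.9% higher and 39.4% lower among all tested genes.

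**Figure D1:**
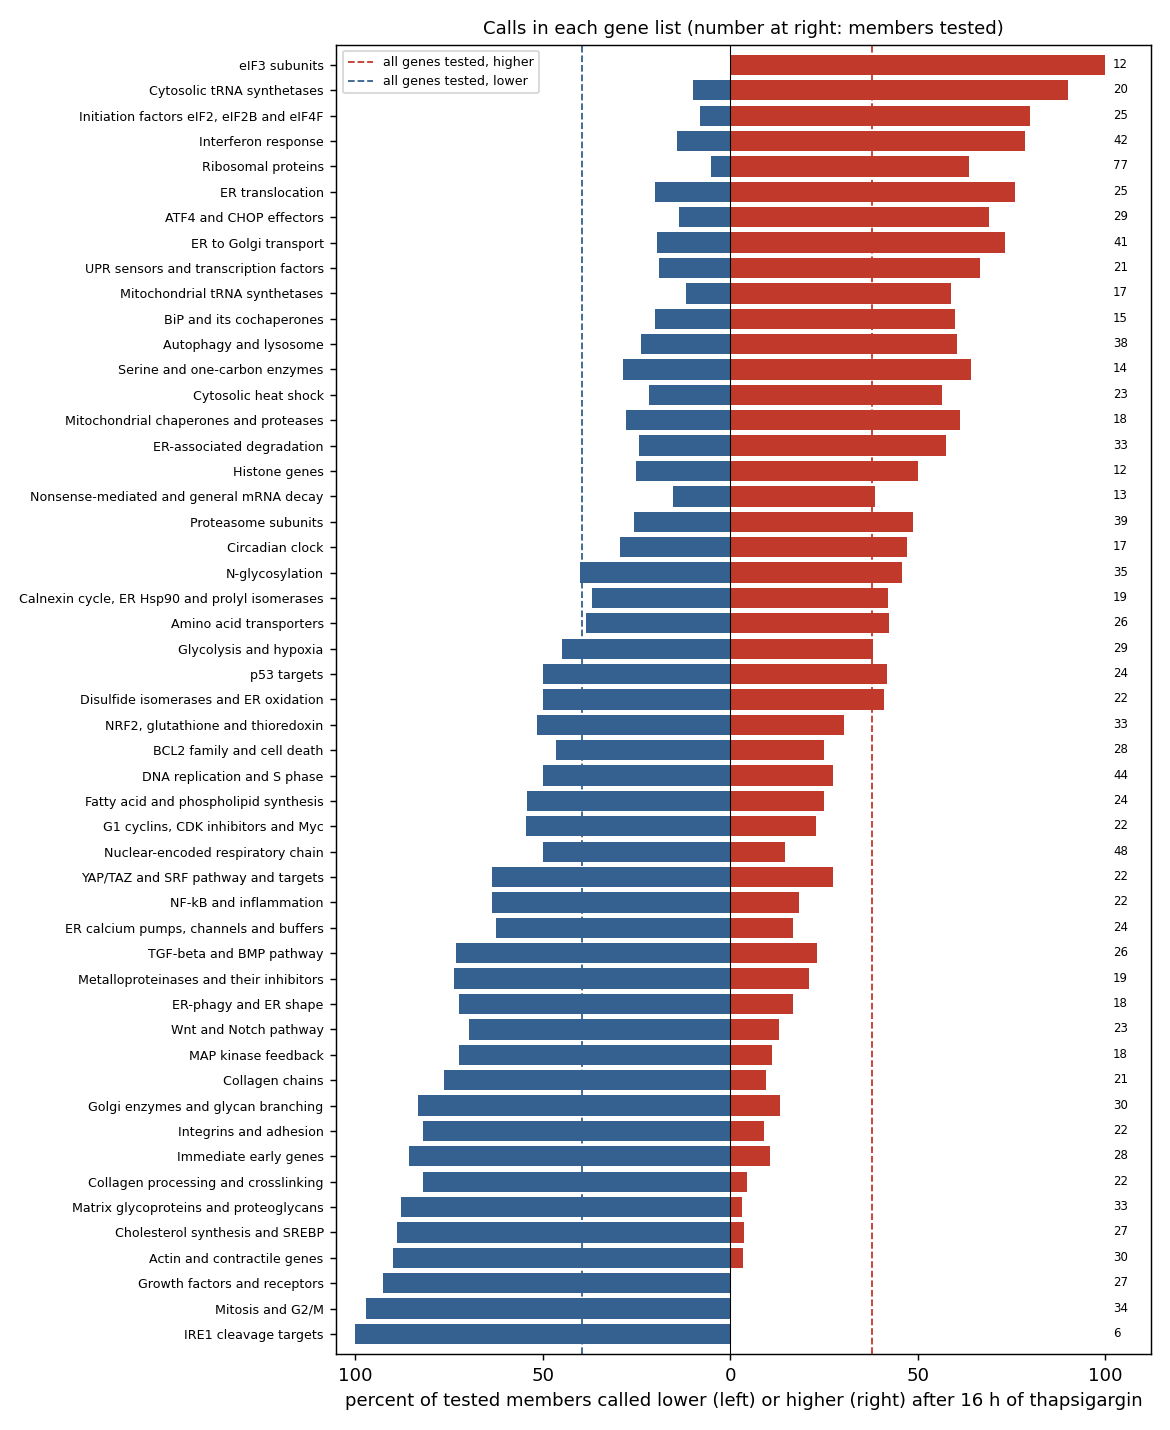
Percent of the tested members of each gene list called higher (right, red) or lower (left, blue) after 16 h of thapsigargin against control; the number at the right edge is the number of members tested, and dashed lines mark the shares of all tested genes, 37.9% higher and 39.4% lower. Lists are ordered by the difference of the shares, from eIF3 subunits at the top to IRE1 cleavage targets at the bottom.

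Among 21 sensors and transcription factors of the unfolded protein response 14 rose, 4 fell and 3 were not called, and the list's median log2 change was 0.62. Atf6, which encodes the Golgi-activated factor, measured 432, 374, 372 and 404 CPM in treated cells, against 126.2 ± 8.32 CPM in control cells (mean ± SD, n = 4). The treated values stand wholly above the control values, with a 3.13-fold rise (95% interval of the log2 change 1.52 to 1.77). Ern1, the gene of the sensor IRE1, had 96.5, 83.2, 90 and 95.1 CPM in treated and 46.1, 47.1, 49.3 and 48.6 CPM in control cells, a 1.91-fold rise without overlap. Trib3, a target of ATF4 and CHOP whose pseudokinase product binds back to both, averaged 191 ± 29.1 CPM against 53.9 ± 11.9 CPM (SD, n = 4 each), a 3.54-fold rise. Nupr1, a small stress-induced chromatin protein, rose 3.63-fold to 152 ± 10.2 CPM, against 41.9 ± 3.07 CPM in control cells. Ppp1r15b, a subunit that directs a phosphatase to eIF2, fell 2.26-fold to 223 ± 22.2 CPM, against 503 ± 38 CPM in control cells. Mbtps1, the site-1 protease that cuts ATF6 in the Golgi, had 181, 187, 195 and 192 CPM in treated and 327, 366, 358 and 364 CPM in control cells and fell 1.88-fold. Creb3l1, which encodes OASIS, an ER-anchored factor of the same family as ATF6 that acts on collagen genes, had 36.2, 52.6, 52.5 and 44.7 CPM in treated cells, against 165, 280, 240.4 and 231 CPM in control cells, a fall of 4.93-fold. In both genes the groups lay apart.

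The ER stress element (ERSE) is the promoter motif through which ATF6 and XBP1 act together with the factor NF-Y. It was searched in RefSeq promoter windows (250 bases before to 50 after a gene's start, build GRCm38.p6) as CCAAT, any 9 bases and CCACG on either strand, and its second form ERSE-II as ATTGG, any base and CCACG. ERSE contains the CCAAT box that was also searched alone. Of 32851 windows 39 (0.119%) held ERSE and 12 (0.0365%) held ERSE-II. Windows were matched to 9829 of the 12366 tested genes (79.5%), of which 18 held ERSE and 8 held ERSE-II. Of the 18, 15 rose, 1 fell and 2 were not called, 11 rose at least 2-fold, and the median log2 change was 1.91. Those that rose include Xlr3a and Xlr3b, near-identical copies that can share reads. Of the 8 with ERSE-II, 7 rose and 1 was not called, with a median of 0.71. Among all tested genes 37.9% rose, 8.35% at least 2-fold, and 39.4% fell. A match shows that the letters are in the window and says nothing of binding. The stretches below, with 25 bases on either side, are from ER folding, degradation and N-glycosylation genes called higher, taken by smallest p. They are not the full set. Syvn1 and Canx also held ERSE, Dnajb11 held ERSE-II, and all of them rose without being shown. Capitals mark the motif, which reads CCAAT to CCACG on the gene's strand or CGTGG to ATTGG where it lies on the other.
Hspa5: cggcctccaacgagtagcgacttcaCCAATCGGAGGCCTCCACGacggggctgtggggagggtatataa
Pdia6: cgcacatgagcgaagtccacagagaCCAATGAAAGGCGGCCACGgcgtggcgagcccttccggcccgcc
Creld2: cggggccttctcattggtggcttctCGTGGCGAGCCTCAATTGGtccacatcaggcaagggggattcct
Calr: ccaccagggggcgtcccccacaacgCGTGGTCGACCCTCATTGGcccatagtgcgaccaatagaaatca
Hsp90b1: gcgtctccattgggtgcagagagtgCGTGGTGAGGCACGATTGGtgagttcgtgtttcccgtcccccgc
Alg12: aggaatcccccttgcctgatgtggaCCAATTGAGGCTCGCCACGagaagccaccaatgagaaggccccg
Dnajc3: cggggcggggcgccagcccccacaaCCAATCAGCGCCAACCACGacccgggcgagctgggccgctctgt
Ero1lb: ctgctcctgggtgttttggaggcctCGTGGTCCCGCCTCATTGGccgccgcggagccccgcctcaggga
Herpud1: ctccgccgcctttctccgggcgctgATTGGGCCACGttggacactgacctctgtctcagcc
Positions are 1-based, the first stretch lying at chr2:34772000-34772068 on the plus strand, with its motif 65 bases before the start of Hspa5. The motif lay 98 bases before the start of Pdia6 (chr12:17266466-17266534, plus), 126 before Creld2 (chr15:88819495-88819563, plus) and 162 before Calr (chr8:84847050-84847118, minus). Further stretches are those of Hsp90b1 (chr10:86705508-86705576, minus), Dnajc3 (chr14:118937802-118937870, plus) and, with the motif 201 bases before the start, Ero1lb (chr13:12565657-12565725, plus). Alg12 is read from the opposite strand of the Creld2 stretch, so 1 copy of the motif serves as the match of both genes. The ERSE-II of Herpud1 lay 52 bases before its start (chr8:94386352-94386412, plus).

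The genes whose windows are shown were taken from those called higher, so their shared direction is not a result of the search. Hspa5, which encodes the ER chaperone BiP, had 18290, 16080, 15760 and 16730 CPM in treated cells, against 1103, 928, 974 and 1002 CPM in control cells. Hsp90b1, which encodes the ER Hsp90 GRP94, had 10330, 8782, 8460 and 9360 CPM in treated and 1014, 814, 880 and 879.7 CPM in control cells, 10.3-fold higher. Calr, the lectin chaperone and calcium buffer calreticulin, had 9764, 9283, 8976 and 9519 CPM, against 1880, 1676, 1777 and 1708 CPM in control cells, 5.33-fold higher. None of the 3 pairs of groups overlapped, and the highest value of each group in Hspa5 and Hsp90b1 came from replicate 1. Creld2, an ER protein of the disulfide isomerase network, rose 5.82-fold, with 314, 346, 353 and 336 CPM in treated and 53.3, 58.5, 60.6 and 59.2 CPM in control cells. Dnajc3, the BiP cochaperone P58IPK, rose 4.04-fold to 852 ± 74.4 CPM, against 211 ± 14 CPM in control cells. Alg12, a mannosyltransferase of the glycan precursor, shared that promoter stretch with Creld2 and rose 2.99-fold to 61.9 ± 2.82 CPM, against 20.7 ± 0.997 CPM.

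Further members of the BiP system moved in both directions. Of 15 genes for BiP, its cochaperones and nucleotide exchange factors 9 rose, 3 fell and 3 were not called, with a median of 0.83, and together they took 2.44% of the counts of treated and 0.307% of those of control libraries. Sdf2l1, a partner of the ER cochaperone ERdj3 and BiP, had 284, 334, 325 and 308 CPM in treated cells, against 27.6, 30.3, 30.2 and 29.9 CPM in control cells. That 10.6-fold rise kept the groups apart. Manf, a secreted ER protein that binds BiP, had 1545, 1496, 1480 and 1449 CPM in treated and 230.3, 194, 204 and 199.6 CPM in control cells, 7.21-fold higher. Sdf2, the paralog of Sdf2l1, went the other way and fell 1.77-fold to 52.1 ± 1.83 CPM, against 92.1 ± 3.38 CPM. Dnajc10, a cochaperone with disulfide reductase activity, fell 1.21-fold, and Creld1, the paralog of Creld2, fell 1.31-fold with overlapping libraries.

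**Figure D2:**
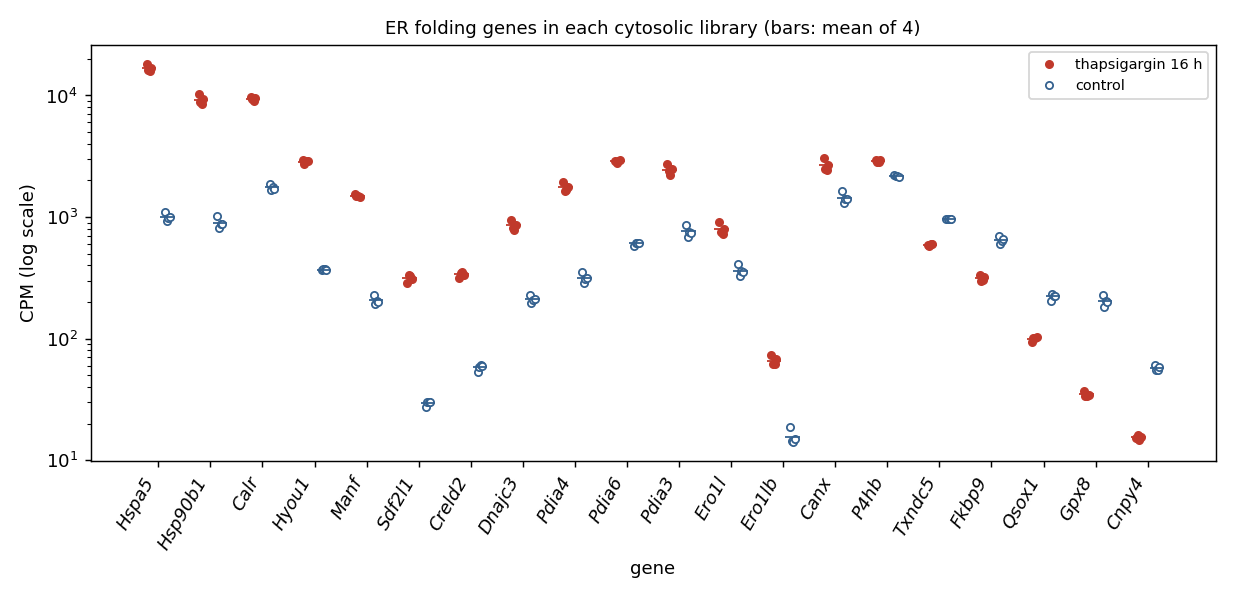
Level in CPM (log axis) of 20 ER folding genes in the 4 cytosolic libraries of thapsigargin 16 h (filled, left of each pair) and the 4 of control (open, right), with a bar at each mean. From Hspa5 to P4hb the treated libraries lie above the control libraries, and from Txndc5 to Cnpy4 they lie below them, for example 34.9 CPM in treated and 204 CPM in control cells for Gpx8 and 15.4 and 57.4 CPM for Cnpy4.

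Of 22 disulfide isomerases and ER oxidation genes 9 rose, 11 fell and 2 were not called (median -0.14), shares near those of all tested genes. Pdia4, a multidomain isomerase, had 1929, 1648, 1676 and 1763 CPM in treated and 356, 286, 312 and 312 CPM in control cells, 5.54-fold higher. Pdia3, the isomerase that works with calnexin and calreticulin, rose 3.22-fold to 2454 ± 212 CPM, against 761 ± 74.8 CPM in control cells. P4hb, which encodes protein disulfide isomerase itself and the shared subunit of collagen prolyl hydroxylase, rose 1.33-fold. The oxidases that reload them both rose, Ero1l (ERO1-alpha) 2.2-fold and Ero1lb (ERO1-beta) 4.25-fold. Other oxidative enzymes fell. Gpx8, an ER glutathione peroxidase, had 37.1, 33.9, 33.9 and 34.6 CPM in treated cells, against 228, 182, 203 and 201 CPM in control cells, a fall of 5.83-fold. Qsox1, a sulfhydryl oxidase of the secretory pathway, had 93.7, 100.2, 101.8 and 102.4 CPM in treated and 204, 233, 226 and 226 CPM in control cells and fell 2.23-fold. Txndc5, a thioredoxin-domain isomerase, fell 1.62-fold, Txndc12 2.16-fold, Tmx3 2.12-fold and the peroxiredoxin gene Prdx4 1.5-fold, each without overlap.

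Of 19 genes of the calnexin cycle, GRP94 and the ER prolyl isomerases 8 rose, 7 fell and 4 were not called, with a median of -0.04. These shares too were near those of all tested genes. Canx, the membrane lectin chaperone calnexin, rose 1.85-fold to 2663 ± 278 CPM, against 1439 ± 147.5 CPM in control cells, and Uggt1, the glucosyltransferase that returns misfolded glycoproteins to it, rose 1.79-fold. Among prolyl isomerases Fkbp11 rose 2.32-fold and Ppib, cyclophilin B, 1.34-fold. Fkbp9 fell 2.06-fold, to 314 ± 16.2 CPM against 649 ± 38.8 CPM, and Ppic 1.67-fold. Cnpy4, a canopy-family ER protein, had 15.2, 16, 14.7 and 15.6 CPM in treated and 60.9, 54.7, 55.6 and 58.3 CPM in control cells and fell 3.73-fold. The list took 2.49% of the counts of treated and 0.816% of those of control libraries, and most of these counts in treated libraries belonged to Calr and Hsp90b1.

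Of 33 genes of ER-associated degradation, which draws misfolded proteins back to the cytosol for the proteasome, 19 rose, 8 fell and 6 were not called (median 0.46). Syvn1, the ubiquitin ligase HRD1, had 169.6, 236, 241 and 209 CPM in treated and 49.8, 70.6, 61.1 and 61.8 CPM in control cells, 3.52-fold higher. Its partner Sel1l rose 2.82-fold, with 408, 345, 359 and 369.8 CPM against 143.7, 125.3, 129.7 and 125.8 CPM. The values of both genes lay apart between the groups. Vimp, a selenoprotein that recruits the p97 ATPase, rose 3.04-fold, Erlin1, a membrane protein scaffold, 2.37-fold, Ufd1l, a p97 cofactor, 2.35-fold, and Derl1, a channel component, 1.82-fold. Ubxn8, which also recruits p97, fell 2.37-fold, Rnf139, a ligase that acts on sterol-regulated proteins, 1.61-fold, and Faf2 1.39-fold.

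Most genes for entry into the ER had higher mRNA levels. Of 25 translocation genes 19 rose, 5 fell and 1 was not called (median 0.58). Sec61a1, the channel subunit, had 1575, 1764, 1859 and 1813 CPM in treated and 655, 924, 829 and 836 CPM in control cells, 2.16-fold higher. Srp68, a subunit of the signal recognition particle, rose 2.34-fold to 258 ± 10.6 CPM, against 110.4 ± 10.3 CPM, and Srprb, a receptor subunit, 1.97-fold. Srp54a rose 2.56-fold by its counts, which near-identical copies of the gene can share. The signal peptidase subunit Sec11c rose 2.09-fold. The 3 that fell with the smallest p were Wrb, a receptor for tail-anchored proteins (1.96-fold), Ssr4 (1.28-fold) and Tram2 (1.58-fold).

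For N-glycosylation, 16 of 35 genes rose, 14 fell and 5 were not called (median -0.09), shares near those of all tested genes. The members that rose belong to several steps. Gfpt1, which starts the hexosamine pathway, rose 2.38-fold, and Gnpnat1, which acts next in it, had 371, 314, 303 and 330.3 CPM in treated and 89.8, 76.8, 78.7 and 77 CPM in control cells, 4.09-fold higher. Stt3a, the catalytic subunit of the cotranslational oligosaccharyltransferase, rose 2.24-fold to 1496 ± 134.6 CPM, against 669 ± 76.8 CPM. Paralogous subunits of the other form of this enzyme moved apart. Magt1 had 563, 472, 470.5 and 500 CPM in treated and 224, 183, 202 and 202 CPM in control cells, 2.47-fold higher. Tusc3 had 23, 22, 22.7 and 22.4 CPM in treated and 81.8, 63.6, 72.5 and 74.4 CPM in control cells, 3.24-fold lower. Mpdu1 and the dolichol kinase gene Dolk fell 1.89-fold and 1.64-fold.

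Of 41 genes for transport from the ER to the Golgi, by COPII vesicles, 30 rose, 8 fell and 3 were not called (median 0.34). Sec23b, a coat subunit, had 169, 149, 157 and 152 CPM in treated and 33.7, 29.3, 31.9 and 32.6 CPM in control cells, 4.91-fold higher, and the groups lay far apart. Other coat and docking genes rose by less: the SNARE gene Bet1 2.91-fold, Tfg 2.09-fold, Gosr2 1.98-fold, Stx5a 1.95-fold, the outer coat gene Sec31a 1.91-fold and Sec24d, which loads procollagen, 1.46-fold. The KDEL receptors return escaped chaperones to the ER. Kdelr1 fell 1.99-fold to 103.5 ± 3.95 CPM, against 206 ± 1.57 CPM, and Kdelr3 fell 1.31-fold. Sar1a, a GTPase that starts coat assembly, fell 1.59-fold. Windows were found for 35 of the 41 genes, and 7 of them (20%) held TGACGTGG on either strand, the core of the unfolded protein response element. It was in 1.02% of tested genes with a window and 0.676% of all windows. Among all lists searched, this one had the highest share. Of the 100 tested genes that held it, 53 rose, 24 fell and 23 were not called, 9 rising and 8 falling at least 2-fold. All tested genes gave 37.9% higher and 39.4% lower, 8.35% and 17.6% at least 2-fold.

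Genes of ER calcium handling fell more often than they rose, with 4 of 24 higher, 15 lower and 5 not called (median -0.26). Atp2a2, which encodes SERCA2, one of the pumps that thapsigargin blocks, had 1248, 1078, 1131 and 1159 CPM in treated and 767, 669, 703 and 720.2 CPM in control cells, 1.61-fold higher. Atp2a3, which encodes the pump SERCA3, had 26.4, 31.1, 32.7 and 32.5 CPM in treated cells, against 0.914, 0.792, 0.75 and 0.956 CPM in control cells. Nucb2, a calcium-binding protein of the secretory pathway, had 157, 142.5, 132 and 143.2 CPM in treated and 34, 27.4, 29.9 and 33.4 CPM in control cells, 4.61-fold higher. Stim1 and Stim2 sense the calcium store and open channels for refilling at the cell surface. Stim2 had 24.2, 23.1, 22.5 and 24.6 CPM in treated and 93.4, 88.6, 84.5 and 84.2 CPM in control cells, 3.72-fold lower, and Stim1 fell 2.18-fold to 19.2 ± 0.56 CPM, against 41.7 ± 2.82 CPM. The luminal buffers Rcn1, Rcn2 and Sdf4 fell 1.89-, 1.79- and 1.69-fold.

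Of 18 genes of ER-phagy and ER shape 13 fell, 3 rose and 2 were not called (median -0.56). Fam134b, the receptor that sends ER sheets to autophagy, had 101.5, 91.6, 91.7 and 95.2 CPM in treated and 292, 254, 269 and 278 CPM in control cells, 2.88-fold lower. Its paralog Fam134c fell 2.66-fold, and the tubule-shaping reticulons Rtn4 and Rtn3 fell 2.24-fold and 2.02-fold. Reep6, which shapes ER in other tissues, rose 3.69-fold to 63.3 ± 8.03 CPM, against 17.1 ± 2.38 CPM, and Rrbp1, a ribosome-binding protein of rough ER, rose 1.44-fold. Ccpg1, another ER-phagy receptor, fell 1.48-fold.

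The 6 mRNAs in the list of IRE1 cleavage targets all fell at least 2-fold. Bloc1s1, the most widely used indicator of IRE1 cleavage, had 7.7, 6.49, 7.37 and 7.19 CPM in treated and 30.9, 43.8, 37.8 and 37.5 CPM in control cells, 5.22-fold lower. Scara3, a scavenger receptor, had 13.2, 11.6, 12.4 and 11.4 CPM in treated and 92.7, 90.3, 88.8 and 87.4 CPM in control cells, 7.39-fold lower. Hgsnat, a lysosomal acetyltransferase, fell 5.03-fold, and the collagen gene Col6a1 fell 20.4-fold. Sparc and Pdgfrb also belong to the matrix and receptor lists described below. A fall in mRNA level does not show how it came about, and cleavage was not measured.

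Of 29 effectors of ATF4 and CHOP 20 rose, 4 fell and 5 were not called (median 1.27), and 16 rose at least 2-fold. Cth, cystathionine gamma-lyase, which makes cysteine, had 309, 276, 284 and 294 CPM in treated and 49.5, 39.7, 42.6 and 42.4 CPM in control cells, 6.67-fold higher. Ddit4, the mTORC1 inhibitor REDD1, rose 5.77-fold, with 53.5, 84.9, 71.5 and 61.1 CPM against 10.4, 13.3, 11.5 and 11.7 CPM in control cells. Sesn2, another mTORC1 inhibitor, had 62.6, 78.3, 79 and 74.5 CPM in treated and 14, 19.9, 19.5 and 17.3 CPM in control cells, 4.16-fold higher. In these 3 genes the groups lay apart. The mitochondrial folate enzyme gene Aldh1l2 rose 4.08-fold to 1102 ± 75 CPM, against 269.9 ± 19.7 CPM, and Aldh18a1, which makes proline, 2.16-fold. Sqstm1, the autophagy receptor p62, rose 4.47-fold. Eif4ebp1, a translation repressor, rose 1.5-fold and the secreted stress hormone Gdf15 had 2 ± 1.2 CPM in treated and 0.778 ± 0.52 CPM in control cells, both with overlapping libraries. The call of Gdf15 was lost in 5 of the 19 alternative analyses, among them those without treated replicate 2 or 3 or without control replicate 1 or 4. Tnfrsf10b, the death receptor DR5 that CHOP induces in other settings, fell 1.4-fold, with 89.7, 79.8, 83.7 and 87.8 CPM in treated and 129.2, 112.7, 120.5 and 116.3 CPM in control cells. Slc30a1, a zinc exporter, fell 2.79-fold and Angptl4, a lipase inhibitor, fell to 0.596 ± 0.242 CPM, against 2.35 ± 0.383 CPM.

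The composite element through which ATF4 acts with C/EBP-family partners (CARE) was searched as TTGCATCA on either strand. It was in 294 of the 32851 windows (0.895%) and in 74 of the tested genes. Of these 40 rose, 23 fell and 11 were not called, 19 rising and 14 falling at least 2-fold. Among all tested genes 37.9% rose and 39.4% fell, 8.35% and 17.6% at least 2-fold. Shares within the lists of ATF4 effectors and tRNA synthetases are not given, since windows were found for 21 of 29 and 13 of 20 of their genes, under 80%. The stretches of 6 members of the stress lists that hold it and were called higher are shown, with the element in capitals.
Atf3: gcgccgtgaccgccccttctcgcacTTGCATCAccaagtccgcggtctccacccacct
Got1: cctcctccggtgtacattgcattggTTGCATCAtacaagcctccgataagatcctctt
Nupr1: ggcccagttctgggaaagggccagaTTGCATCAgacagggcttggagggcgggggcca
Chac1: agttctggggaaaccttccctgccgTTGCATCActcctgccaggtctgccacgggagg
Tars: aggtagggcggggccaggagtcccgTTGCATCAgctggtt
Aars: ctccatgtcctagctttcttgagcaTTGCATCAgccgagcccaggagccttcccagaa
The element lay 110 bases before the start of Atf3 (chr1:191183411-191183468, minus), 110 before Nupr1 (chr7:126625548-126625605, minus) and upstream of Got1 (chr19:43524675-43524732, minus). It lay 193 bases before Chac1 (chr2:119351024-119351081, plus), 15 before Tars (chr15:11399659-11399698, minus) and upstream of Aars (chr8:111033705-111033762, plus). Got1, the cytosolic aspartate aminotransferase, had 241, 232, 242 and 239 CPM in treated and 56.6, 54.2, 57.1 and 54.8 CPM in control cells. Chac1, which degrades glutathione, had 304, 407, 415 and 386 CPM in treated and 23.3, 39.2, 34.3 and 35.5 CPM in control cells, with its lowest treated and lowest control value both in replicate 1. Nupr1 had 138.8, 149.8, 159 and 161 CPM in treated and 37.7, 42, 42.7 and 45.1 CPM in control cells. The groups did not overlap in any of the 3.

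**Figure D3:**
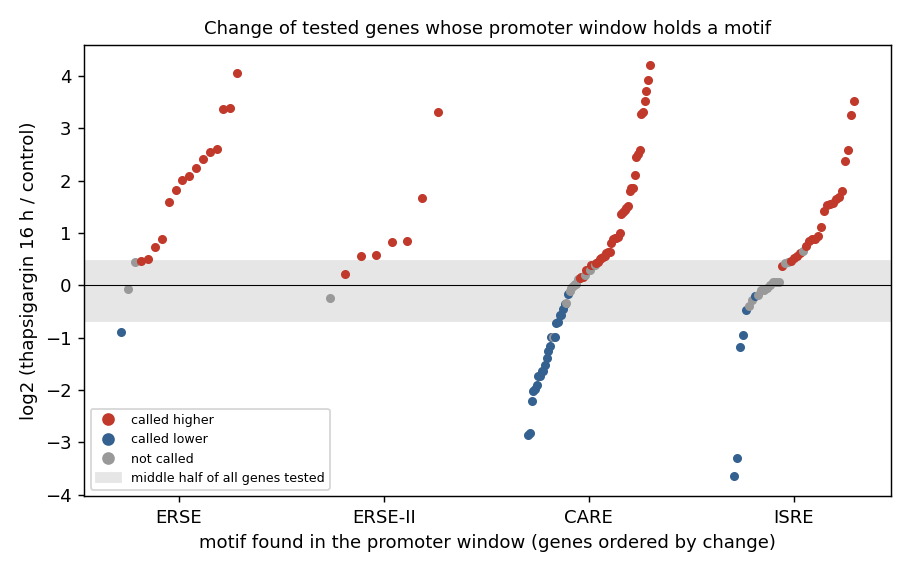
Log2 change after 16 h of thapsigargin against control for the tested genes whose promoter window holds ERSE (18 genes), ERSE-II (8), CARE (74) or ISRE (41), each ordered by its change; red points were called higher, blue points lower and grey points not called, and the grey band marks the middle 50% of all tested genes. ERSE genes reach from -0.89 to 4.06 with 1 called lower, and CARE and ISRE genes also extend to both sides, with 23 and 6 called lower.

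Of 26 amino acid transporter genes 11 rose, 10 fell and 5 were not called (median -0.05), shares near those of all tested genes. Slc3a2, the heavy chain shared by several exchangers, had 2412, 2710, 2797 and 2647 CPM in treated and 502, 569, 569 and 564 CPM in control cells, 4.79-fold higher. Its light chain Slc7a5 was not called, with a log2 change of 0.08 (95% interval -0.02 to 0.18), and Slc38a2, a neutral amino acid carrier that starvation induces, had -0.06 (-0.19 to 0.06). With counts corrected for GC content Slc7a5 was called at 0.20, Slc38a2 at -0.19 and the cystine carrier gene Slc7a11 at -0.18, all still under 1.2-fold. The glycine carrier Slc6a9 rose 3.21-fold. The largest fall was that of the glutamate carrier Slc1a3, with 54.4, 46.4, 46.4 and 49.6 CPM in treated and 588, 499, 541 and 525 CPM in control cells, 10.9-fold lower. The taurine carrier Slc6a6 fell 4.14-fold.

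In serine and one-carbon metabolism 9 of 14 genes rose, 4 fell and 1 was not called (median 0.75). Phgdh, the first enzyme of serine synthesis, had 527, 666, 732 and 662 CPM in treated and 196, 334, 285 and 287 CPM in control cells, 2.35-fold higher. Psph, the last, rose 2.37-fold, whereas Psat1, between them, was not called, with 437, 385, 405 and 407 CPM in treated and 478, 401, 433 and 431 CPM in control cells. Mthfd1l and Mthfd2, the mitochondrial folate enzymes, rose 1.95-fold and 1.67-fold. Tyms, thymidylate synthase of the nucleotide branch, fell 1.48-fold.

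Genes that charge tRNAs rose: 18 of 20 cytosolic synthetases were higher and 2 lower, with a median of 0.95, and 9 rose at least 2-fold. Rars, which charges arginine tRNA, had 606, 513, 533 and 547 CPM in treated and 224, 176, 189.6 and 199 CPM in control cells, 2.79-fold higher. Tars, which charges threonine tRNA, rose 2.63-fold to 510.5 ± 10.9 CPM, against 194 ± 4.72 CPM, and Aars, for alanine, 1.87-fold. The exceptions were Mars, for methionine, with 83, 79.9, 89.4 and 85.7 CPM in treated and 138.5, 148.2, 147.1 and 146.8 CPM in control cells, 1.72-fold lower, and Qars, for glutamine, 1.15-fold lower. Of 17 mitochondrial synthetases 10 rose, 2 fell and 5 were not called (median 0.30). Rars2 rose 2.4-fold and Nars2 2.57-fold.

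All 12 tested subunits of eIF3, the scaffold of initiation, rose, by 2.68-fold in Eif3g, 2.38-fold in Eif3d and 2.31-fold in Eif3c, with a median log2 change of 0.64 and a lowest one of 0.48. Of 25 genes of eIF2, eIF2B and eIF4F 20 rose, 2 fell and 3 were not called. Eif2b3, a subunit of the exchange factor that phosphorylated eIF2 inhibits, had 120.9, 104.3, 100.5 and 109.5 CPM in treated and 41.8, 34.3, 33.8 and 36.4 CPM in control cells, 2.98-fold higher. Eif2s1, the eIF2 subunit that PERK phosphorylates, rose 1.69-fold, and the repressor gene Eif4ebp2 fell 1.68-fold. Of 77 ribosomal protein genes 49 rose and 4 fell, with a median of 0.45 and no member past 2-fold higher, and their share of all counts was 5.85% in treated and 4.51% in control libraries. Single ribosomal protein values are uncertain, as processed pseudogenes can share their reads. Rpl4 rose 1.89-fold and Rpl37a fell 2.22-fold.

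Proteasome subunits rose in 19 of 39 cases and fell in 10 (median 0.14), beside 37.9% higher and 39.4% lower among all tested genes. The ATPase genes Psmc2 and Psmc6 rose 1.78-fold and 1.78-fold, and the immunoproteasome genes Psme2 and Psmb8 fell 1.86-fold and 2.02-fold. Mitochondrial chaperones and proteases rose in 11 of 18 instances, while 5 fell (median 0.53). Dnaja3, a cochaperone of the mitochondrial Hsp70, had 268, 245, 252 and 259 CPM in treated and 80.3, 76, 76.7 and 81 CPM in control cells, 3.26-fold higher. Hspd1, the chaperonin Hsp60, rose 1.85-fold and Hspa9, the mitochondrial Hsp70, 1.69-fold. Nuclear genes of the respiratory chain went the other way, with 7 of 48 higher, 24 lower and 17 not called (median -0.27). Ndufa4 had 162, 158, 150.2 and 154 CPM in treated and 431, 338, 375 and 369 CPM in control cells, 2.42-fold lower, and Atp5b, the catalytic subunit of ATP synthase, fell 1.6-fold. Cycs, the electron carrier cytochrome c, rose 1.85-fold.

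Genes for the secreted products of fibroblasts mostly fell. Of 21 collagen chains 16 fell, 2 rose and 3 were not called (median -1.94), and their summed share of the counts was 0.361% in treated and 1.02% in control libraries. Col1a1, the main chain of type I collagen, had 374, 757, 695 and 568 CPM in treated and 1304, 3209, 2415 and 2278 CPM in control cells, 3.85-fold lower. Although its groups did not overlap, the spread within each was wide, and the lowest value of each group came from replicate 1. Col1a2, the partner chain, had 1283, 1691, 1665 and 1555 CPM in treated and 3422, 4858, 4155 and 4116 CPM in control cells, 2.67-fold lower. Col6a1, of type VI collagen, had 27.4, 28.2, 34.2 and 29.8 CPM in treated and 488, 707, 632 and 621 CPM in control cells, 20.4-fold lower. Col8a1 fell to 2.48 ± 0.302 CPM, against 53.2 ± 3.13 CPM. The 2 that rose, Col14a1 and Col5a3, stayed under 1 CPM in both groups, with 0.434 ± 0.0607 and 0.642 ± 0.204 CPM in treated cells, against 0.107 ± 0.0687 and 0.283 ± 0.14 CPM in control cells.

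Enzymes that process and link collagen fell in 18 of 22 cases, rose in 1 and were not called in 3 (median -1.11). Lox, the lysyl oxidase that starts crosslinking, had 1068, 906, 857 and 935 CPM in treated and 7554, 6107, 6623 and 6547 CPM in control cells, 7.12-fold lower. Its relative Loxl2 fell 6.81-fold, the N-propeptide protease Adamts2 9.8-fold, and P4ha3, a prolyl hydroxylase subunit, fell to 1.02 ± 0.222 CPM, against 26.8 ± 2.15 CPM. Serpinh1, the collagen chaperone HSP47, was not called, with 1243, 1916, 1827 and 1621 CPM in treated and 1386, 2429, 1999 and 1948 CPM in control cells, although without control replicate 1 it passed the test at a log2 change of -0.36. P3h1, a prolyl 3-hydroxylase, rose 1.32-fold.

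Matrix glycoproteins and proteoglycans fell in 29 of 33 cases, 24 of them at least 2-fold, with 1 higher and 3 not called (median -1.91). Fbln2, fibulin-2, had 22.4, 27.6, 30.7 and 27.8 CPM in treated and 453, 742, 656 and 647 CPM in control cells, 23-fold lower. Nid1, a basement membrane linker, fell to 4.18 ± 0.986 CPM, against 71.3 ± 2.18 CPM, and Tgfbi to 6.26 ± 0.48 CPM, against 61.9 ± 2.71 CPM. Fibronectin stood out from the list. Fn1 had 2108, 2032, 2088 and 2097 CPM in treated and 2153, 2303, 2277 and 2214 CPM in control cells, a log2 change of -0.10 (-0.18 to -0.02) that passed the test and did not pass it in 8 of the 19 alternative analyses. Postn, periostin, rose 1.3-fold. Among metalloproteinases and their inhibitors 14 of 19 fell, 4 rose and 1 was not called. Timp3 had 214, 193, 187 and 196 CPM in treated and 2349, 2016, 2105 and 2122 CPM in control cells, 10.9-fold lower. Mmp2, gelatinase A, fell 5.13-fold and Adam12 12-fold, while Mmp19 rose 2.46-fold.

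**Figure D4:**
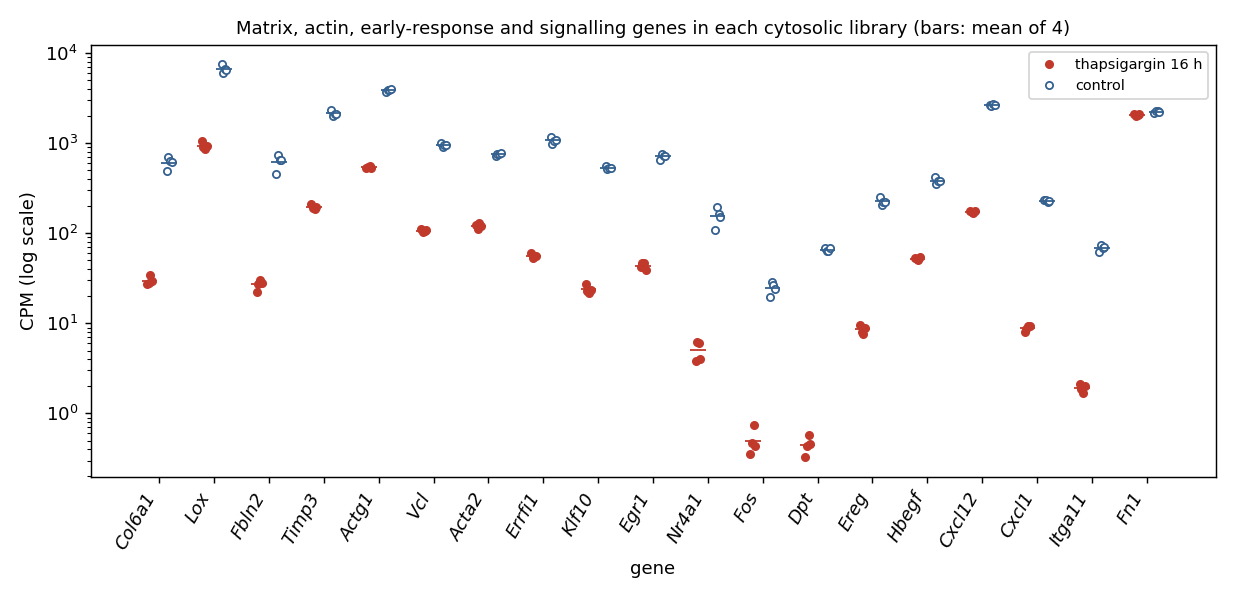
Level in CPM (log axis) of 19 genes of matrix, actin, early response and signalling in the 4 cytosolic libraries of thapsigargin 16 h (filled, left of each pair) and the 4 of control (open, right), with a bar at each mean. All but Fn1 lie far below control in treated libraries, for example 43.9 CPM in treated and 714 CPM in control cells for Egr1.

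Actin and contractile genes fell in 27 of 30 cases, 21 of them at least 2-fold, with 1 higher and 2 not called (median -1.42). Acta2, smooth muscle actin, had 123.5, 113.1, 129.4 and 120.8 CPM in treated and 720.5, 754, 764 and 773 CPM in control cells, 6.19-fold lower. Vcl, vinculin, which ties actin to adhesions, had 112.7, 102.9, 105.6 and 108.3 CPM in treated and 1009, 918, 948 and 965 CPM in control cells, 8.94-fold lower. Actg1, cytoplasmic gamma-actin, fell 7.18-fold, though pseudogenes and other actins can share its reads, and Tagln, transgelin, fell 5.13-fold. Srf, the factor that drives many of these genes, had 33.3, 44.5, 44 and 38.9 CPM in treated and 127.8, 209, 183 and 173 CPM in control cells, 4.31-fold lower. The coactivators of the Hippo pathway were not lower, as Yap1 rose 1.29-fold and Wwtr1, which encodes TAZ, 2.02-fold. Of the 22 genes of that pathway and its targets 14 fell and 6 rose. Ankrd1, a target of YAP, had 48.4, 48.1, 48.7 and 49.5 CPM in treated and 362, 332, 348 and 358 CPM in control cells, 7.19-fold lower, and Axl, a receptor tyrosine kinase, fell 7.08-fold.

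Immediate early genes, which serum and stress switch on without new protein synthesis, fell at least 2-fold in 24 of 28 cases, with 3 higher and 1 not called (median -2.72). Egr1, a zinc finger factor, had 42.1, 47.2, 46.8 and 39.5 CPM in treated and 657, 753, 727 and 721 CPM in control cells, 16.3-fold lower. Fos had 0.359, 0.468, 0.737 and 0.429 CPM in treated and 19.6, 28.7, 26.4 and 23.8 CPM in control cells. Klf10, a TGF-beta-inducible factor, had 27.3, 22.6, 21.8 and 23.7 CPM in treated and 553, 519, 535 and 532 CPM in control cells, 22.4-fold lower. No treated value reached a control value in any of them. Jun fell 3.83-fold and Fosl2 4.25-fold, while Klf4 rose 2.25-fold, Nr4a2 1.46-fold, and Jund 2.06-fold with overlap, a call lost without treated replicate 2 (log2 change 0.69). Feedback inhibitors of MAP kinase signalling fell in 13 of 18 instances, while 2 rose; without replicate 1 of both groups 1 rose. Errfi1, which inhibits the EGF receptor, had 60, 53, 56.4 and 56.7 CPM in treated and 1190, 972, 1058 and 1089 CPM in control cells, 19.1-fold lower. The phosphatase genes Dusp2 and Dusp5 fell to 1.45 ± 0.123 and 1.92 ± 0.267 CPM, against 49.4 ± 6.36 and 63 ± 13.8 CPM.

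Ligands and receptors that tie fibroblasts to their surroundings fell in most cases. Of 27 growth factors and their receptors 25 fell, none rose and 2 were not called (median -1.69); without replicate 1 of both groups 1 rose. Ereg, an EGF receptor ligand, had 9.72, 8.11, 7.63 and 8.99 CPM in treated and 256, 208, 224 and 224 CPM in control cells, 26.4-fold lower. Hbegf, another, fell 7.31-fold, and the receptor gene Egfr 3.71-fold to 14.4 ± 1.4 CPM, against 53.3 ± 4.46 CPM. Both PDGF receptor genes fell, Pdgfra 5.95-fold and Pdgfrb 3.23-fold. Integrins and adhesion genes fell in 18 of 22 instances, while 2 rose (median -1.39). Itga11, a collagen-binding integrin of fibroblasts, had 2.12, 1.87, 1.67 and 2 CPM in treated and 61.3, 75.1, 68.8 and 70.5 CPM in control cells, 35.8-fold lower, and Itga5, the fibronectin receptor chain, fell 2.56-fold.

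In the TGF-beta and BMP pathway 19 of 26 genes fell and 6 rose (median -1.20). The ligand genes Tgfb3 and Bmp4 fell 11.5-fold and 6.95-fold, the receptor gene Tgfbr2 fell 3.63-fold, and Tgfbr1 rose 1.5-fold. Smad1, which carries BMP signals, rose 2.44-fold and Grem1, a BMP antagonist, 3.54-fold. Wnt and Notch genes fell in 16 of 23 instances, while 3 rose. Hes1, a Notch target, fell to 0.688 ± 0.0443 CPM, against 11.6 ± 1.03 CPM, and Notch2 fell 2.4-fold. Among NF-kB and inflammatory genes 14 of 22 fell and 4 rose (median -0.86). Cxcl12, a chemokine of stromal cells, had 178, 171, 168 and 178 CPM in treated and 2696, 2631, 2719 and 2692 CPM in control cells, 15.5-fold lower. Cxcl1 had 7.99, 8.57, 9.34 and 9.45 CPM in treated and 237, 232, 224 and 229 CPM in control cells, 26.1-fold lower, and Ccl2 fell 7.52-fold. Ccl5, which interferon also induces, had 57.4, 87.6, 81.6 and 71.2 CPM in treated and 21, 26.7, 24.4 and 24.5 CPM in control cells, 3.08-fold higher. Il6 was not called, at 1.19 ± 0.349 CPM in treated and 0.949 ± 0.303 CPM in control cells.

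Interferon-response genes rose in 33 of 42 cases, fell in 6 and were not called in 3, with a median of 1.06 and 21 at least 2-fold higher. Usp18, which removes the ubiquitin-like protein ISG15, had 27.3, 21.6, 27.2 and 27 CPM in treated and 0.738, 0.726, 0.554 and 0.586 CPM in control cells. Isg15 itself averaged 98.1 ± 6.92 CPM in treated and 19.3 ± 2.98 CPM in control cells, 5.08-fold higher. Irf7, the factor that amplifies the response, had 2.87, 4.62, 4.72 and 4.92 CPM in treated and 0.492, 0.66, 0.684 and 0.308 CPM in control cells, 7.98-fold higher. The groups lay apart in all 3. Irf9, a subunit of the factor that interferon activates, rose 3.43-fold. Values of Ifit1 (2.89-fold higher), Ifit3 (6.02-fold higher) and Oas1a (to 11.2 ± 0.876 CPM, against 1.16 ± 0.316 CPM) are uncertain for single genes, because similar copies can share their reads. The members that fell include Ifitm3, with 119.7, 118.3, 125.7 and 118.3 CPM in treated and 276, 255, 278 and 288 CPM in control cells, 2.28-fold lower, and Gbp2, 1.92-fold lower.

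The interferon-stimulated response element (ISRE), bound by interferon regulatory and STAT factors, was searched as GAAANNGAAACT on either strand. It was in 89 windows (0.271%) and in 41 tested genes, of which 22 rose, 6 fell and 13 were not called. Among all tested genes 37.9% rose and 39.4% fell. Windows were found for 32 of the 42 interferon genes, under 80%, so no share within the list is given. The stretches of 4 members that rose are shown with every match in capitals; Ifit1 holds a pair of separate matches and Gbp3 a pair that overlap, and the position given is that of the match closest upstream of the start.
Ifit3: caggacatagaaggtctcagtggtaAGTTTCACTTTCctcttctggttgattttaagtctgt
Ifit1: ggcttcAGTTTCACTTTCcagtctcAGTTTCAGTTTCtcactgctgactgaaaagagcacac
Oas1a: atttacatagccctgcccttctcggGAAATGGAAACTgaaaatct
Gbp3: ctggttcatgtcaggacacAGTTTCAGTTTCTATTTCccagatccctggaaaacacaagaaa
The element lay 158 bases before the start of Ifit3 (chr19:34583346-34583407, plus) and 87 before Ifit1 (chr19:34640777-34640838, plus). It lay 20 bases before Oas1a (chr5:120907526-120907570, minus) and 41 before Gbp3 (chr3:142559978-142560039, plus). Gbp3, a guanylate-binding GTPase, rose 2.92-fold to 27.5 ± 2.07 CPM, against 9.4 ± 0.986 CPM in control cells.

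Genes of cholesterol synthesis and its regulators fell in 24 of 27 cases, 17 of them at least 2-fold. The list's median was -1.27, with 1 member higher and 2 not called. Without replicate 1 of both groups 2 were higher. Hsd17b7, which acts late in the pathway, had 14.4, 15.8, 13.9 and 14.9 CPM in treated and 113.9, 94.8, 106.8 and 106.2 CPM in control cells, 7.13-fold lower. The SREBP factors that drive these genes travel from the ER to the Golgi and are cut there by the same proteases as ATF6. Srebf2 had 93.6, 142.8, 142.8 and 121.8 CPM in treated and 219, 377, 312 and 304 CPM in control cells, 2.42-fold lower, and Srebf1 was not called (-0.15, 95% interval -0.68 to 0.38). Insig1, which holds SREBP in the ER, fell 2.49-fold, and Lss rose 1.21-fold. In fatty acid and phospholipid synthesis 13 of 24 genes fell and 6 rose. Elovl6 fell 4.93-fold and the desaturase gene Scd1 2.01-fold. Fasn was not called at -0.31 (-0.70 to 0.08). It was called lower without control replicate 1 (-0.48), without replicate 1 of both groups (-0.36) and with counts corrected for GC content (-0.16). Plin2, a lipid droplet coat, rose 1.61-fold.

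No gene of mitosis and G2/M rose: 33 of 34 fell, 26 of them at least 2-fold, and 1 was not called (median -1.33). Mki67, a marker of cycling cells, averaged 16.3 ± 0.356 CPM in treated and 129.6 ± 14.2 CPM in control cells, 7.94-fold lower. Cenpa, the centromeric histone, had 14.2, 14.1, 15 and 14.9 CPM in treated and 94.7, 85.1, 88.2 and 89.9 CPM in control cells, 6.14-fold lower. Ccnb1, cyclin B1, fell 4.42-fold to 24.1 ± 1.72 CPM, against 106.6 ± 9.08 CPM, and Top2a, a topoisomerase, 2.1-fold. Its kinase partner Cdk1 fell by less, 1.72-fold. Windows were found for 29 of the 34, and 19 of these (65.5%) held TTTGAA, the cell cycle homology region (CHR), on either strand, against 14.2% of tested genes with a window and 17.9% of all windows. CCAAT was held by 23 (79.3%), against 43.6% and 37.4%. Clock genes, which moved in both directions, held CCAAT in 13 of 15 genes with a window (86.7%). Such short motifs occur often by themselves. CHR was in 1395 tested genes, of which 526 rose and 568 fell, and CCAAT in 4281, of which 1688 rose and 1644 fell. Stretches from the windows of 4 members that fell show each CHR match in capitals, and positions are those of the match closest upstream of the start.
Ccnb2: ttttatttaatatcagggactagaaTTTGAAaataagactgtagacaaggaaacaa
Mki67: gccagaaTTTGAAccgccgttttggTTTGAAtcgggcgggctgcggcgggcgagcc
Ube2c: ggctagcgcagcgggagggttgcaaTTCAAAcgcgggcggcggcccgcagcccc
Prc1: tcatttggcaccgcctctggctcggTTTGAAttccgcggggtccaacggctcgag
Its position was 167 bases before the start of Ccnb2 (chr9:70421691-70421746, minus), 98 before Mki67 (chr7:135716447-135716502, minus), 29 before Ube2c (chr2:164769875-164769928, plus) and 30 before Prc1 (chr7:80294421-80294475, plus). Ube2c, a ubiquitin-conjugating enzyme of mitotic exit, fell 3.86-fold, and Prc1, a spindle midzone protein, 2.56-fold.

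Of 44 replication genes 12 rose, 22 fell and 10 were not called (median -0.11), beside 37.9% higher and 39.4% lower among all tested genes. Mcm2, a helicase subunit, had 168, 199.5, 211 and 188 CPM in treated and 68.3, 89.2, 81.2 and 81.5 CPM in control cells, 2.39-fold higher. Orc2, a subunit of the origin recognition complex, had 286, 232, 237 and 250.1 CPM in treated and 85.4, 62.1, 70 and 70.3 CPM in control cells, 3.5-fold higher. Tk1, thymidine kinase, had 3.56, 5.46, 5.22 and 5.12 CPM in treated and 21.4, 33.5, 31.4 and 29.6 CPM in control cells, 5.98-fold lower. Rrm2, a ribonucleotide reductase subunit, fell 1.55-fold, and Pcna, the sliding clamp, had a log2 change of -0.12 (-0.20 to -0.04), called here and not called without a filter on low counts (-0.10) or with only genes of at least 1 CPM (-0.08). Among G1 regulators 12 of 22 fell and 5 rose, beside the same 39.4% lower and 37.9% higher among all tested genes. Ccnd1, cyclin D1, had 12.6, 14.1, 13.7 and 13.1 CPM in treated and 49.7, 56.3, 53.7 and 55.3 CPM in control cells, 4.01-fold lower. Ccnd2, cyclin D2, had 531, 462, 471 and 498 CPM in treated and 338, 289, 302 and 307 CPM in control cells, 1.59-fold higher. Cdkn1b, the inhibitor p27, rose 1.56-fold, and Myc was not called, at 334 ± 43.7 CPM in treated and 333 ± 42.2 CPM in control cells.

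Of 24 p53 targets 10 rose and 12 fell (median -0.19), beside 37.9% higher and 39.4% lower among all tested genes. Gadd45a, a growth arrest gene that ATF4 can also induce, had 326, 377, 338 and 329.8 CPM in treated and 30.1, 29.3, 29.5 and 28.3 CPM in control cells, 11.7-fold higher. Cdkn1a, the inhibitor p21, had 1.16 ± 0.0933 CPM in treated and 2.37 ± 0.45 CPM in control cells, 2.04-fold lower, and Mdm2 rose 1.14-fold with overlap. Btg2 fell 5.35-fold and Plk2 4.35-fold. Genes of the BCL2 family and cell death fell in 13 of 28 cases, rose in 7 and were not called in 8 (median -0.13). The shares of all tested genes were again 39.4% lower and 37.9% higher. Hrk, a BH3-only killer, had 5.09, 3.93, 3.18 and 5.15 CPM in treated and 0.105, 0.099, 0.0326 and 0.185 CPM in control cells, and its groups lay apart. Bid, another, rose 2.34-fold. Bmf fell 10.3-fold to 1.04 ± 0.0515 CPM, against 10.8 ± 0.82 CPM. Bcl2l11, which encodes BIM, was not called (0.12, 95% interval -0.03 to 0.27), and neither was Bbc3, PUMA, at 2.34 ± 1.18 CPM in treated and 1.31 ± 0.638 CPM in control cells. Bbc3 was called higher in 5 of the 19 alternative analyses, with log2 changes of 0.82 to 1.11: with DESeq2, without treated replicate 1, without replicate 1 of both groups and with both GC corrections. Of the protectors, Bcl2 fell 1.35-fold, Mcl1 1.45-fold and Bcl2l1 3.42-fold.

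Cytosolic heat shock genes rose in 13 of 23 instances, while 5 fell (median 0.34), with Hspa4 1.8-fold higher, Hspa8 1.24-fold lower and the regulator gene Hsf1 not called (0.02, 95% interval -0.23 to 0.27). Among genes of NRF2, glutathione and thioredoxin 10 of 33 rose and 17 fell, beside 37.9% higher and 39.4% lower among all tested genes. Txnip, which binds and inhibits thioredoxin, had 258, 230, 229 and 249 CPM in treated and 12.6, 12.6, 13.1 and 14.1 CPM in control cells, 18.4-fold higher. Nqo1, a classical NRF2 target, fell 4.17-fold to 9.48 ± 1.07 CPM, against 39.5 ± 4.84 CPM, whereas Hmox1, heme oxygenase, rose 1.66-fold. Nfe2l2, the gene of NRF2, had 92.2, 83.4, 76.6 and 84.1 CPM in treated and 99, 79, 87.4 and 90.9 CPM in control cells and was not called.

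Autophagy and lysosome genes rose in 23 of 38 instances, while 9 fell (median 0.37). Genes of autophagosome formation that rose include Atg13 with 146.8, 145.6, 154 and 146.9 CPM in treated and 35.5, 39.8, 38.4 and 38.9 CPM in control cells, 3.89-fold higher, Atg14 2.5-fold and Map1lc3b, which encodes LC3B, 1.92-fold. The lysosomal genes with the smallest p among those that fell were the cathepsin genes Ctsb (3.19-fold) and Ctsd (2.1-fold) and the membrane protein gene Lamp1, with 586, 564, 578 and 581 CPM in treated and 1421, 1446, 1467 and 1448 CPM in control cells, 2.5-fold lower. Golgi enzymes and glycan-branching genes fell in 25 of 30 instances, while 4 rose (median -0.74). St3gal1, a sialyltransferase, fell 7-fold and Mgat5, which adds branches to N-glycans, 2.85-fold. Slc35b1, an ER nucleotide-sugar and ATP carrier, had 478, 459, 458 and 451 CPM in treated and 122.9, 111.4, 111.6 and 111.4 CPM in control cells, 4.04-fold higher.

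In glycolysis and the hypoxia response 11 of 29 genes rose and 13 fell (median -0.11), shares near those of all tested genes. Car9, a carbonic anhydrase that hypoxia induces, had 6.82, 6.83, 6.56 and 6.84 CPM in treated and 77.8, 82.3, 80.3 and 84.1 CPM in control cells, 12-fold lower, and Hk2 was not called. Clock genes rose in 8 of 17 instances, while 5 fell, beside 37.9% higher and 39.4% lower among all tested genes. Ciart, a circadian repressor, had 68.2, 73.5, 81.5 and 77 CPM in treated and 7.98, 9.04, 9.22 and 10.3 CPM in control cells, 8.21-fold higher. Cry1 rose 2.6-fold, Nr1d1, which encodes REV-ERB alpha, fell 3.47-fold, and Bhlhe40 had 19.3, 17.6, 19 and 18.5 CPM in treated and 192, 178, 180.3 and 189 CPM in control cells, 9.93-fold lower. Times of day are not given in the labels, so a difference in clock phase between groups cannot be told apart from the treatment. Histone genes rose in 6 of 12 instances, while 3 fell, beside the same shares of all tested genes. Hist1h1c, a linker histone, had 15.2, 41, 33.4 and 24.8 CPM in treated and 1.3, 4.26, 2.9 and 2.13 CPM in control cells, and Hist1h2bc rose 3.65-fold, with values that other histone copies can share. Genes of nonsense-mediated and general mRNA decay were near the centre, with 5 of 13 higher, 2 lower and 6 not called (median 0.12), and Upf2 rose 1.93-fold.

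Among called genes of at least 5 CPM in both groups and without overlap, the 12 with the highest log2 change include 1 outside the lists. The lists were chosen with earlier results of these data known, so how many such genes they hold is not a result. Tenm4, a teneurin of the cell surface, had 66.6, 61.9, 61.7 and 67.5 CPM in treated and 6.43, 5.35, 6.84 and 5.46 CPM in control cells, 10.7-fold higher. Cdsn, corneodesmosin, an adhesion protein of cornified skin that stands in the list of ATF4 and CHOP effectors, had 186, 249, 262 and 238 CPM in treated and 20.4, 30.8, 29.6 and 29.3 CPM in control cells, 8.49-fold higher. The 12 with the lowest change include 3 outside them. S100a4, a calcium-binding protein of motile fibroblasts, had 19.9, 18.9, 15.7 and 18.4 CPM in treated and 612, 488, 506 and 532 CPM in control cells, 29.3-fold lower. Has2, which makes hyaluronan, had 9.23, 7.79, 7.7 and 8.36 CPM in treated and 262, 210.2, 226 and 228 CPM in control cells, 28-fold lower. Wisp2, of the same family as Ctgf and Cyr61, had 5.09, 7.89, 7.5 and 7.47 CPM in treated and 237, 319.8, 288 and 279 CPM in control cells, 40.1-fold lower.

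In 36 tested genes the control mean was under 1 CPM and the treated mean at least 5 CPM, and in 67 the reverse held. Ordered by their treated level, the first of these sets starts with Sspo, Ifi44, Atp2a3, Mx2 and Usp18. Gabrr2, a GABA receptor subunit gene of retina, had 19, 17, 22.3 and 22.8 CPM in treated and 0.597, 0.924, 1.08 and 0.647 CPM in control cells. Cass4, an adhesion scaffold gene, had 16.4, 17.1, 17.5 and 15.5 CPM in treated and 0.316, 0.33, 0.261 and 0.339 CPM in control cells. Mx2, an interferon-induced GTPase, had 28, 24.7, 25.4 and 26.6 CPM in treated and 0.949, 1.19, 0.782 and 0.771 CPM in control cells. In the other direction Arc, a neuronal early gene, averaged 0.565 ± 0.129 CPM in treated and 81.8 ± 20.3 CPM in control cells. Cdh17, a cadherin of intestine, had 1.01, 0.53, 0.837 and 1.12 CPM in treated and 43.3, 31, 35.8 and 35.1 CPM in control cells, and Id1, a BMP target, had 0.457, 1.34, 0.904 and 0.716 CPM and 24.7, 34.3, 30.1 and 27 CPM. Folds are not given for these, since they rest on few counts in one of the groups.

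The largest gains in counts-per-million fell on ER genes. Hspa5 rose by 15720 CPM, Hsp90b1 by 8336 CPM, Calr by 7625 CPM and Herpud1 by 3322 CPM. Eef1a1, the elongation factor, which rose 1.5-fold, gained 3759 CPM. The largest losses were those of Lox, which fell by 5766 CPM, Thbs1, which fell by 4622 CPM, and Cyr61, which fell by 3390 CPM. Actg1, Col1a2, Cxcl12 and Sparc were among those that came next.

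A smaller set of genes held its level within narrow bounds. For 1161 tested genes the whole 95% interval of the change lay within 1.2-fold either way, 1005 of them not called and 156 called. Of the genes named above, Myc (log2 change 0.01, interval -0.21 to 0.22) and Hk2 (0.07, -0.02 to 0.16) have intervals close to 0. Genes that missed the threshold with wide intervals, such as Il6 (-0.32 to 0.98), Bbc3 (-0.06 to 1.71) and Serpinh1 (-0.58 to 0.11), are not shown to be alike in the groups.

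Levels of members at the other times and in polysome RNA place the 16 h values, as a description without tests; 1 h and 16 h of thapsigargin share the control libraries. Sdf2l1 averaged 29.5 ± 1.27 CPM in control cells, 29.6 ± 1.6 CPM at 1 h, 313 ± 21.8 CPM at 16 h and 309.9 ± 12.2 CPM at 16 h with the PERK inhibitor. Gadd45a averaged 29.3 ± 0.752 CPM in control cells, 120.8 ± 8.01 CPM at 1 h, 343 ± 23.3 CPM at 16 h and 36.6 ± 2.79 CPM with the inhibitor. With the inhibitor, the mean of Sdf2l1 lay within 1 SD of its mean without it, and that of Gadd45a lay close to control. Hspa5, Hsp90b1, Calr and Herpud1, the ER genes named above for the largest gains, had lower means with the inhibitor than without it. In the same order, means were 1002, 3065, 16720 and 6794 CPM for Hspa5 and 896.7, 1394, 9233 and 4151 CPM for Hsp90b1. Calr gave 1760, 1847, 9385 and 7393 CPM, and Herpud1 373.4, 794.4, 3695 and 312.2 CPM. Txnip measured 13.1 ± 0.728, 89 ± 4.52, 242 ± 14.4 and 157 ± 4.51 CPM in the same order of conditions. For Usp18 the levels were 0.651 ± 0.0946, 0.739 ± 0.108, 25.8 ± 2.77 and 8.04 ± 0.589 CPM. Several genes that were low at 16 h had means above control at 1 h. Egr1 averaged 714 ± 40.5 CPM in control cells, 3496 ± 193 CPM at 1 h, 43.9 ± 3.72 CPM at 16 h and 12.6 ± 1.51 CPM with the inhibitor. Col1a1 gave 2302 ± 781, 5649 ± 1235, 598 ± 169 and 958 ± 165 CPM, and Mki67 129.6 ± 14.2, 187 ± 12.4, 16.3 ± 0.356 and 76.2 ± 4.93 CPM. In polysome RNA, scaled separately, Txnip averaged 587 ± 14.1 CPM at 16 h and 13.2 ± 0.764 CPM in control cells, and Sdf2l1 214 ± 17.2 and 29.2 ± 3.91 CPM, each with the direction seen in cytosolic RNA.

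**Figure D5:**
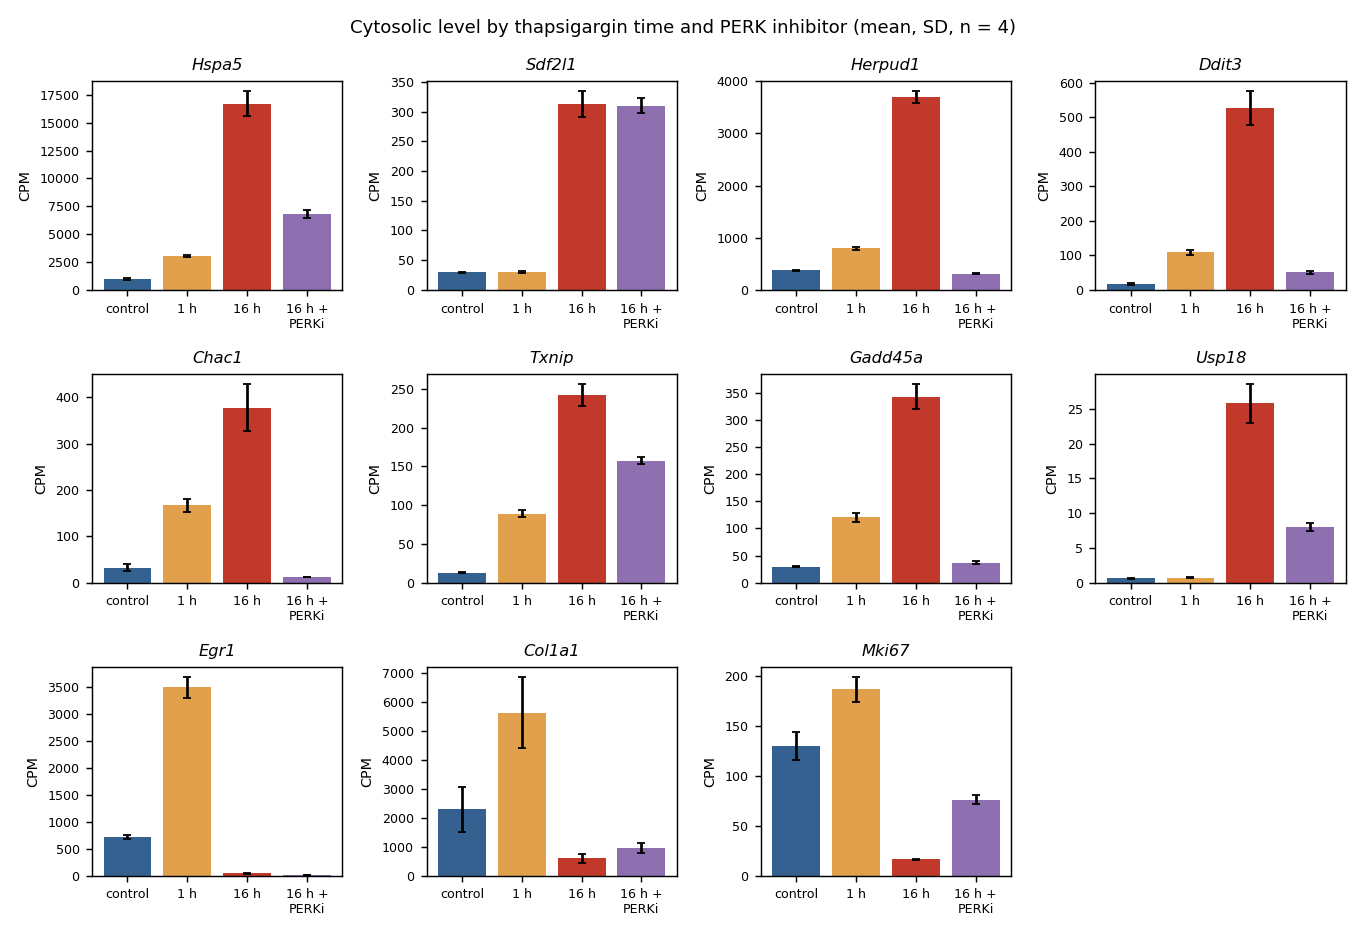
Cytosolic level in CPM (bars: mean, error bars: SD, n = 4) of 11 genes in control cells, at 1 h and 16 h of thapsigargin, and at 16 h with a PERK inhibitor for the last 4 h; each panel has its own axis from 0. Egr1, Col1a1 and Mki67 have means above control at 1 h and below it at 16 h, and Hspa5 to Usp18 are highest at 16 h.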

How the data were processed

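Cytosolic RNA of mouse embryonic fibroblasts was sequenced from TruSeq libraries, 4 per condition. The authors deposited unscaled whole-number read counts by gene symbol; per the submitters' processing notes, reads were aligned with HISAT (no version given) to mm10 (GRCm38) and DESeq2 1.9.23 was used. No label or header names the annotation, the counting tool or its strand and multi-mapping settings, so overlapping, antisense and near-identical genes cannot be separated with certainty. The 8 libraries held 28280030 to 34966246 counts each.

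Counts were analysed with edgeR 4.0.16 in R 4.3.3: filterByExpr (minimum count 10, minimum total 15), TMM factors, and 1 quasi-likelihood fit with robust dispersions over all 16 cytosolic libraries in 4 groups (12 residual degrees of freedom), which share 1 estimate of the spread. Genes were called at a Benjamini-Hochberg adjusted p under 0.05 over all 12366 tested genes. Levels are counts-per-million (CPM) with TMM factors, given as mean ± SD over 4 libraries where not listed singly; intervals are 95%. A log2 change is that of thapsigargin 16 h over control. The fit was tested on simulated data. Libraries of a group differed by more than sampling noise (chi-square per degree of freedom of at least 2.29), so none was taken for a duplicate. Library columns were matched through the sample names in the descriptions.

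The members, lists and named genes were chosen with earlier results of these data known. From each list, up to 6 called genes in its majority direction and up to 3 in the other, by smallest p, and its defining members were named. Added to these were the 12 highest and 12 lowest changes at 5 CPM or more, the 8 genes that most left or reached the range under 1 CPM, and the 8 largest gains and losses. Clone-type symbols were passed over, and some genes that the rule names are not reported here. Of the sequences, the ER stress elements followed a rule set with the lists, for ER folding and degradation genes. N-glycosylation genes and the limit to genes called higher were added to that rule. Shares of motifs within lists were not part of it. The genes shown for CARE, ISRE and CHR were chosen after their values were seen. Lists were described by counts and medians, with no list test. Promoter sequences are those of RefSeq on GRCm38.p6. Alternatives comprised other scalings, filters, DESeq2 1.42.0, 8 libraries only, a replicate block, leaving out each library and, chosen after seeing the data, leaving out replicate 1 of both groups and correcting counts for GC content with and without the block.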

Additional observations from a re-analysis of the deposited data

Results flagged for a closer look

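Among the 97 genes whose library values are given singly, 10 of the 194 groups of 4 had a library whose gap to its nearest neighbour took up most of the range of its group; chance marks about 1 group in 20. Control replicate 1 was the library that stood apart in 5 of them: it was lowest for Cdsn (20.4 CPM), Mars (138 CPM) and Slc3a2 (502 CPM) and highest for Gnpnat1 (89.8 CPM) and Slc35b1 (123 CPM). Treated replicate 1 was lowest for Irf7 (2.87 CPM) and Wisp2 (5.09 CPM). Treated replicate 2 was lowest for Usp18 (21.6 CPM). Treated replicate 3 was highest for Atg13 (154 CPM) and lowest for Car9 (6.56 CPM). In replicate 1 of both groups the deviation of a gene from its group mean also fell with the GC content of its transcripts, and the part of that in these values was not tested. None of the 10 genes lost its call in an alternative analysis that gave it a value; Wisp2 had none under the GC correction.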

How the results depend on the processing

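Over 19 alternative analyses, 16 of them planned, the genes called higher ranged from 4167 (the 8 libraries fitted alone) to 4971 (no filter on low counts), and those called lower from 4149 (mean of at least 1 CPM) to 5154 (no filter), against 4683 and 4876. At least 2-fold higher were 931 to 1331 genes and at least 2-fold lower 1640 to 2592. No call reversed its direction in any alternative, and of the calls still tested at most 561 were lost (with the 8 libraries alone). Fewer genes are tested under a stricter filter, and with a mean of at least 1 CPM 8614 of the 9559 calls were kept. DESeq2 called 4819 higher and 4756 lower. Leaving out 1 library at a time gave 4550 to 4753 higher and 4734 to 4954 lower. Other scaling factors put the median log2 change of all genes between -0.0323 and 0.00728, against -0.0124. With the replicate number as a block 4635 were higher and 4831 lower, and with block and GC correction together 4865 and 5045. Same-numbered deviations correlated at 0.823, 0.61, 0.323 and 0.03, and not every library correlated best with its own number, so the numbers were not taken to pair the samples. Of 297 genes named, 15 crossed the threshold in at least 1 alternative: Fn1, Gdf15, Jund and Pcna lost a call, and Bbc3, Bcl2l11, Fasn, Hk2, Hsf1, Nfe2l2, Psat1, Serpinh1, Slc38a2, Slc7a11 and Slc7a5 gained one. Leaving out replicate 1 of both groups and both GC corrections were chosen after seeing the data. Depth limited genes under 1 CPM, whose median standard error of the log2 change was 0.36, against 0.056 above 1000 CPM.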
